A study of Mus musculus with 12 samples.

Results

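Antibodies are built from paired heavy and light chains, and the constant region of the heavy chain decides whether a molecule is IgM, IgD, IgG, IgE or IgA. The genes described here encode the constant regions of mouse immunoglobulins. They are the heavy chain genes Ighm (IgM), Ighd (IgD), Ighg3, Ighg1, Ighg2b and Ighg2c (the IgG subclasses), Ighe (IgE) and Igha (IgA), and the light chain genes Igkc (kappa) and Iglc2 (lambda). These 10 genes, of 40760 in the table, were picked by name because immunoglobulin counts were already known to differ strongly between the groups. Their differences between groups are therefore given as descriptions, without tests.

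RNA was sequenced from Pdgfra+ (CD140a+) cells, a mesenchymal fraction that had been sorted by flow cytometry from the lungs of young adult male mice on the C57BL/6 background. The 12 libraries form 4 groups of 3. WT vehicle and Pear1-/- vehicle come from mice that received vehicle, and WT bleo and Pear1-/- bleo from mice that received bleo (bleomycin), a drug that injures the lung and leads to fibrosis and that the study gave as an intratracheal aerosol. Pear1-/- mice carry a gene-trap cassette with an En2 splice acceptor, LacZ and a neomycin resistance gene in an intron of Pear1, which encodes platelet endothelial aggregation receptor 1. The allele is carried by all cells of the animal and not by fibroblasts alone. Neither the bleo dose and day for these libraries nor the number of mice behind each one is stated, so p-values measure only the spread between these libraries, which may be technical.

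In a resting B cell the heavy chain locus is read through its first constant genes, and IgM and IgD are made from the same long transcript by alternative splicing. On activation, the cell can exchange the first constant gene for one further down the locus, a step called class switching. Plasma cells then secrete antibody of one isotype in very large amounts. At mucosal surfaces that isotype is often IgA, which the J chain (Jchain) joins into dimers and the receptor Pigr carries across the epithelium. Antibody genes are transcribed in the B lineage, and fibroblasts are not known to make antibody. In bulk RNA, fewer cells of a type and less RNA per cell cannot be told apart.

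In GRCm38 with the GENCODE M21 annotation, all 8 heavy chain genes lie on the minus strand of chromosome 12. Ighm (chr12:113418558-113422730) comes first in the direction of transcription. Ighd starts 6.41 kb further on, Ighg3 at 61.5 kb, Ighg1 at 92.2 kb, Ighg2b at 115 kb, Ighg2c at 134 kb, Ighe at 149 kb and Igha at 162 kb (chr12:113254830-113260236). Igkc lies on the plus strand (chr6:70726435-70726966) and Iglc2 on the minus strand (chr16:19198396-19200351). The first 90 coding bases of Ighm (chr12:113422641-113422730) and Igha (chr12:113260147-113260236), the isotypes on which the comparisons turn, are given 5′ to 3′ from the first constant exon of each gene.
Ighm: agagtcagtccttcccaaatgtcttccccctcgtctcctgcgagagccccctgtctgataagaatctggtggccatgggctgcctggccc
Igha: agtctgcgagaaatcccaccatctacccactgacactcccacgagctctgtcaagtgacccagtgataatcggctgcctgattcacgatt

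Over their coding sequences Ighm and Igha were identical in 51.7% of alignment columns, gaps included, and 357 of the 1376 columns were gaps. The longest stretch that their transcripts shared exactly was 12 bases. The IgG genes are closer relatives, with 74.4% to 85.9% identity between pairs, counted in the same way. Ighg2b and Ighg2c are the closest of them, and their first 90 coding bases (chr12:113307844-113307933 and chr12:113288843-113288932, minus strand) differ at 7 positions, given in capitals.
Ighg2b: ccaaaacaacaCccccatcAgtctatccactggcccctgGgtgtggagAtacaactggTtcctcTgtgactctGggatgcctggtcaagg
Ighg2c: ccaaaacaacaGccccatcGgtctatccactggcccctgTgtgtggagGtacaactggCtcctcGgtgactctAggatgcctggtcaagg

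Among the lambda genes, Iglc2 and Iglc3 are near copies. They were identical in 96.2% of coding alignment columns, against 72.9% to 84.9% for the other lambda pairs. The stretch of 150 bases shown here (chr16:19198703-19198852 and chr16:19065532-19065681, minus strand) has 7 differences, again in capitals.
Iglc2: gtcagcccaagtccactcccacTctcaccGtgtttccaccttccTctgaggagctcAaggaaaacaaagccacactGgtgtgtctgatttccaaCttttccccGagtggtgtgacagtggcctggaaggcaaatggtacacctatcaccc
Iglc3: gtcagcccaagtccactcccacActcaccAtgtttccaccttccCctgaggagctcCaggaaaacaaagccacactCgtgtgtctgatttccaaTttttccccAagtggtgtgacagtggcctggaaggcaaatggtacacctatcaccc
No window of 100 bases was shared exactly between any of the 10 genes, or between them and the companion genes Iglc1, Iglc3 and Iglc4. The longest exact match was 88 bases, between Ighg2b and Ighg3, followed by 79 between Iglc2 and Iglc3 and 78 between Ighg2b and Ighg2c. How a read that fits more than one of these genes was counted is not given in the sources used here, so the split among the IgG subclasses and among the lambda genes is less certain than the split between isotypes.

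The libraries held 6702948 to 10447101 counts. WT vehicle replicate 2 stood apart from its group. Its counts differed from those of WT vehicle replicates 1 and 3 by a chi-square of 21.2 and 21.8 per gene, against 1.58 between replicates 1 and 3, and from those of the Pear1-/- vehicle libraries by 1.73 to 2.67. The groups are used as labelled, and values that leaving out this library moves strongly are also given without it. Libraries within each bleo group differed by a chi-square of only 1.35 to 1.49 per gene, little more than counting error. The p-values may therefore not cover the spread between mice. No fall of Pear1 was detected in the libraries labelled Pear1-/-, and after bleo it was higher there than in WT, which goes against the label of a gene-trap knockout. Its level was 547 ± 28.8 normalised counts (counts divided by the size factor of the library) in WT vehicle against 519.7 ± 24.0 in Pear1-/- vehicle, and 254 ± 14.0 in WT bleo against 357 ± 14.2 after bleo in the Pear1-/- group (SD, n = 3). The log2 difference of Pear1-/- from WT was -0.079 with vehicle and 0.48 with bleo (edgeR adjusted p = 0.470 and 0.000120). The deposited counts are per gene, and exons before and after the cassette were not counted apart. WT and Pear1-/- therefore mean the libraries labelled so throughout, and each direction between the genotypes rests on those labels. The sort marker Pdgfra and the leukocyte marker Ptprc (CD45) were found in every library. Pdgfra ran from 4125 to 4802 normalised counts in vehicle, 1338 to 1394 in WT bleo, with 2369.9 to 2403 in Pear1-/- bleo, and Ptprc from 3010.0 to 4016, 7542 to 7727 and 3241 to 3448.

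Immunoglobulin made up a large part of these libraries. The 387 rows of the immunoglobulin loci took 8.45% to 13.9% of all counts in the vehicle libraries, 1.80% to 1.83% in WT bleo, with 7.12% to 7.17% in Pear1-/- bleo. The 10 constant genes alone took 5.95% to 9.65% in vehicle, 1.31% to 1.32% in WT bleo, with 5.24% to 5.30% in Pear1-/- bleo. WT bleo had the smallest share of immunoglobulin, and every Pear1-/- bleo library lay between it and the vehicle libraries.

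**Figure D1:**
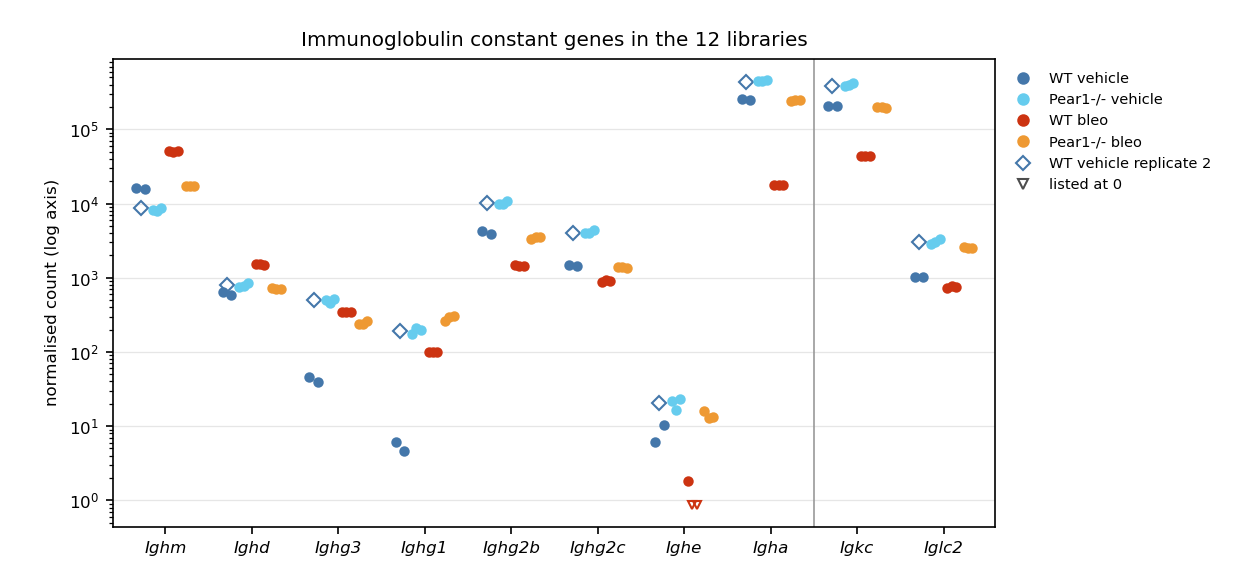
Normalised counts (log axis) of the 10 immunoglobulin constant genes in each of the 12 libraries, with 1 point per library by group. WT bleo is the highest group for Ighm and the lowest for Igha and Igkc, and WT vehicle replicate 2 lies nearer to the Pear1-/- vehicle libraries than to the other WT vehicle libraries for Igha, Ighm and Igkc.

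IgM and IgA differed in opposite directions after bleo. Ighm stood at 16359.7, 8798 and 15488 normalised counts in WT vehicle replicates 1 to 3, 8208, 7822 and 8711 in Pear1-/- vehicle, 51233, 49878 and 50354 in WT bleo, with 16954, 17308 and 17098 in Pear1-/- bleo. The WT bleo libraries were the highest of all, and neither bleo group overlapped its own vehicle group. On the fitted scale Ighm was 3.75-fold higher in WT bleo than in WT vehicle (log2 fold change 1.91 ± 0.16, SE; 1.74 without WT vehicle replicate 2) and 2.08-fold higher in Pear1-/- bleo than in Pear1-/- vehicle (1.06 ± 0.15). Between the bleo groups it was 2.98-fold lower in Pear1-/- bleo (-1.57 ± 0.16).

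Igha was the most abundant heavy chain gene in every vehicle library. It stood at 257662, 434029 and 249206 normalised counts in WT vehicle, 447078, 443478 and 464983 in Pear1-/- vehicle, 17816, 17789 and 17775 in WT bleo, with 243041, 251514 and 251385 in Pear1-/- bleo. WT bleo was the lowest group, and the libraries of each bleo group lay under those of its own vehicle group. Igha was 17.5-fold lower in WT bleo than in WT vehicle (log2 -4.13 ± 0.16; -3.76 without WT vehicle replicate 2) and 1.81-fold lower in Pear1-/- bleo than in Pear1-/- vehicle (-0.86 ± 0.14). Pear1-/- bleo held 13.8-fold more Igha than WT bleo (3.79 ± 0.16).

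Ighd, which shares its primary transcript with Ighm, stood at 633, 786 and 583 normalised counts in WT vehicle, 740.5, 763 and 847 in Pear1-/- vehicle, 1528, 1525 and 1471 in WT bleo, with 734, 710.0 and 703 in Pear1-/- bleo. All WT bleo libraries were above every other library. Ighd was 2.28-fold higher in WT bleo than in WT vehicle (log2 1.19 ± 0.094; 1.39 without WT vehicle replicate 2), whereas the fitted difference in Pear1-/- mice was -0.12 ± 0.093. There were 21.2 ± 8.68 Ighm reads for each Ighd read in WT vehicle (26.2 ± 0.52 without replicate 2), 10.5 ± 0.47 in Pear1-/- vehicle, 33.5 ± 0.76 in WT bleo, with 23.9 ± 0.72 in Pear1-/- bleo (SD, n = 3). The ratio was higher in each bleo group than in its vehicle group.

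Among the IgG subclasses, Ighg2b and Ighg2c shared a pattern. Ighg2b stood at 4328, 10152 and 3900.4 normalised counts in WT vehicle, 9922, 9825 and 10774 in Pear1-/- vehicle, 1481, 1450.2 and 1441 in WT bleo, with 3368, 3531 and 3527 in Pear1-/- bleo. Ighg2c, which C57BL/6 mice carry in place of Ighg2a, stood at 1505, 4061 and 1448 in WT vehicle, 4053, 4029.9 and 4397 in Pear1-/- vehicle, 871, 930.1 and 915 in WT bleo, with 1399, 1405 and 1333 in Pear1-/- bleo. Both were lower in each bleo group than in its vehicle group, with no overlap. The log2 difference of Ighg2b was -2.06 ± 0.25 in WT (-1.42 without WT vehicle replicate 2) and -1.55 ± 0.24 in Pear1-/-, and that of Ighg2c was -1.36 ± 0.27 in WT (-0.63 without it) and -1.59 ± 0.27 in Pear1-/-. Between the bleo groups both were higher in Pear1-/- bleo, by 2.36-fold for Ighg2b (1.24 ± 0.24) and 1.51-fold for Ighg2c (0.59 ± 0.27).

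Ighg1 and Ighg3 were lower in number, and their difference between the WT groups rests on a single library. Ighg1 had 5, 189 and 4 raw counts in WT vehicle replicates 1 to 3, 182, 227 and 181 in Pear1-/- vehicle, 110, 98 and 100 in WT bleo, with 296, 339 and 319 in Pear1-/- bleo. Ighg3 had 38, 491 and 34 in WT vehicle, 521, 497 and 468 in Pear1-/- vehicle, 377, 337 and 346 in WT bleo, with 267, 281 and 271 in Pear1-/- bleo. For both genes WT vehicle replicate 2 lay close to the Pear1-/- vehicle libraries, and the other WT vehicle libraries lay far under every other library. With all libraries the log2 difference of WT bleo from WT vehicle was 0.51 ± 0.65 for Ighg1 and 0.80 ± 0.54 for Ighg3, and without WT vehicle replicate 2 it was 4.29 ± 0.29 and 3.10 ± 0.14. Leaving out WT vehicle replicate 3 instead turned the Ighg1 difference to -0.027. In Pear1-/- mice Ighg1 was higher after bleo (0.57 ± 0.51) and Ighg3 lower (-0.99 ± 0.52). Pear1-/- bleo held 2.81-fold more Ighg1 than WT bleo (1.49 ± 0.55) and 1.42-fold less Ighg3 (-0.51 ± 0.53).

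Ighe was near the floor of the data. It had 5, 20 and 9 raw counts in WT vehicle, 23, 18 and 21 in Pear1-/- vehicle, 2, 0 and 0 in WT bleo, with 18, 15 and 14 in Pear1-/- bleo. A count of 0 in WT bleo replicates 2 and 3 allows up to 0.344 and 0.342 CPM (counts scaled to a common library total), the level of 3 counts. Over their 3 libraries Pear1-/- bleo had 47 counts of Ighe and WT bleo 2. The floors cover counting error only.

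The light chain genes Igkc and Iglc2 were lowest in WT bleo, as was Igha. Igkc stood at 208880.0, 382682 and 207518 normalised counts in WT vehicle, 388279, 398008 and 423948 in Pear1-/- vehicle, 43063, 43824 and 43663 in WT bleo, with 197777, 198574 and 196392 in Pear1-/- bleo. It was 6.07-fold lower in WT bleo than in WT vehicle (log2 -2.60 ± 0.17; -2.18 without WT vehicle replicate 2) and 2.04-fold lower in Pear1-/- bleo than in Pear1-/- vehicle (-1.03 ± 0.16). Between the bleo groups it was 4.50-fold higher in Pear1-/- bleo (2.17 ± 0.16).

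Iglc2 stood at 1013, 3019.8 and 1035 normalised counts in WT vehicle, 2811, 3055 and 3274 in Pear1-/- vehicle, 720.0, 765 and 745 in WT bleo, with 2628, 2546 and 2544 in Pear1-/- bleo. The WT bleo libraries were under every other library. The log2 difference with bleo was -1.17 ± 0.29 in WT (-0.39 without WT vehicle replicate 2). In Pear1-/- it was -0.24 ± 0.28 (-0.26 ± 0.052 without that library). Pear1-/- bleo was 3.43-fold above WT bleo (1.78 ± 0.29). Among the companion lambda genes, Iglc1 averaged 6265 ± 5448, 13701 ± 2317, 1298 ± 45.6 and 7937 ± 278 in WT vehicle, Pear1-/- vehicle, WT bleo and then Pear1-/- bleo (SD, n = 3), and 3121 ± 210.4 in WT vehicle without replicate 2. Iglc3, the near copy of Iglc2, averaged 344 ± 90.4, 449 ± 46.8, 577 ± 68.4 and 282 ± 10.3 in the same order, so that it was highest in WT bleo. Iglc4 stayed at 8.52 or less in every library.

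**Figure D2:**
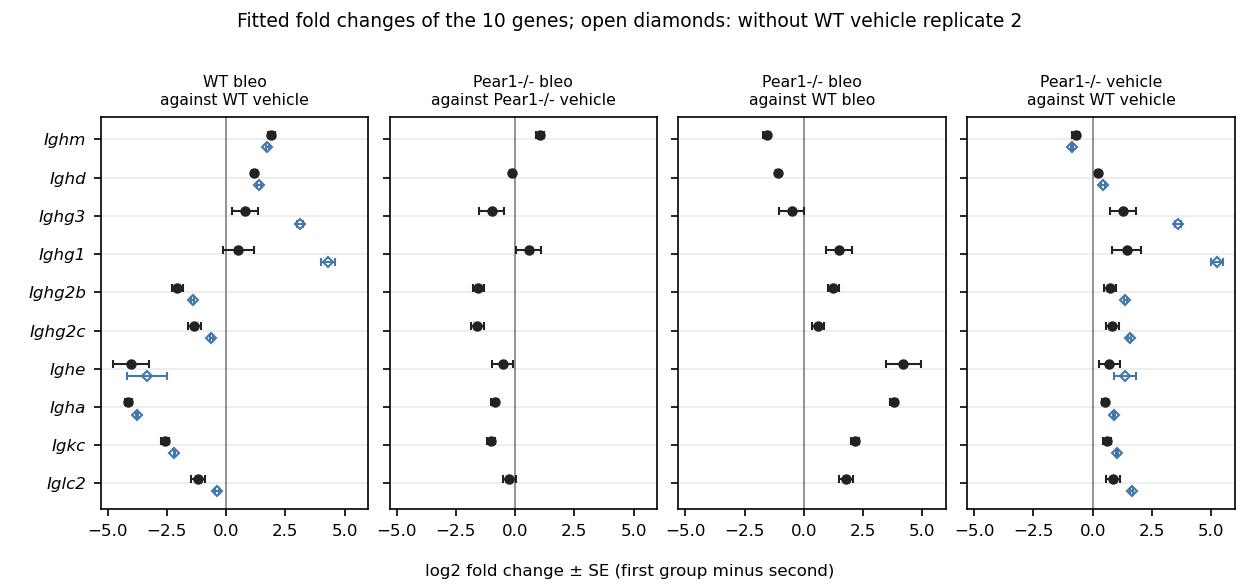
Fitted log2 fold change ± SE of each constant gene in the 4 comparisons, first group minus second, with all 12 libraries and without WT vehicle replicate 2. Igha and Ighm lie on opposite sides of 0 in each comparison, and leaving out that library moves Ighg1 in WT bleo against WT vehicle from 0.51 to 4.29.

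All 10 genes passed the filter on low counts. In WT bleo against WT vehicle, 4 were higher and 6 lower, with a median log2 difference of -1.26 (-0.51 without WT vehicle replicate 2) beside -0.071 for all 17418 genes tested. The groups did not overlap for 8 of the 10, and for 68.8% of all genes tested (10 and 81.2% without that library). In Pear1-/- bleo against Pear1-/- vehicle, 2 were higher and 8 lower, with a median of -0.69 beside -0.048. Here 10 did not overlap, against 70.9% of all genes. These overlaps were read on TMM-scaled CPM, and on CPM without that scaling Ighd overlapped between the Pear1-/- groups. In Pear1-/- bleo against WT bleo, 7 were higher and 3 (Ighm, Ighd and Ighg3) lower, with a median of 1.37 beside -0.013, and 10 did not overlap, against 62.7%. In Pear1-/- vehicle against WT vehicle, 9 were higher and 1 (Ighm) lower, with a median of 0.71 (1.37 without WT vehicle replicate 2) beside -0.0039, and 3 did not overlap, against 19.1% (10 and 62% without that library). The genes were picked on these contrasts, so nothing is read from those shares. The comparisons also share libraries, and their values are only set side by side.

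The make-up of the heavy chain reads was taken within each library. Igha took 92.9% ± 1.56, 94.9% ± 0.12, 24.5% ± 0.21 and 91.5% ± 0.087 of heavy chain constant reads in WT vehicle, Pear1-/- vehicle, WT bleo and then Pear1-/- bleo (SD, n = 3). Ighm took 4.49% ± 2.23, 1.73% ± 0.051, 69.5% ± 0.28 and 6.30% ± 0.074 in the same order. WT bleo was the only one of the 4 groups in which IgM reads outnumbered IgA reads, with 0.352 ± 0.0045 Igha reads for each Ighm read. That ratio was 27.1 ± 19.3 in WT vehicle (15.9 ± 0.24 without replicate 2), 54.8 ± 1.69 in Pear1-/- vehicle and 14.5 ± 0.18 in Pear1-/- bleo. WT vehicle replicate 2 had a ratio of 49.3, near the Pear1-/- vehicle libraries (53.4 to 56.7), while replicates 1 and 3 (15.7 and 16.1) lay just above the Pear1-/- bleo libraries (14.3 to 14.7).

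**Figure D3:**
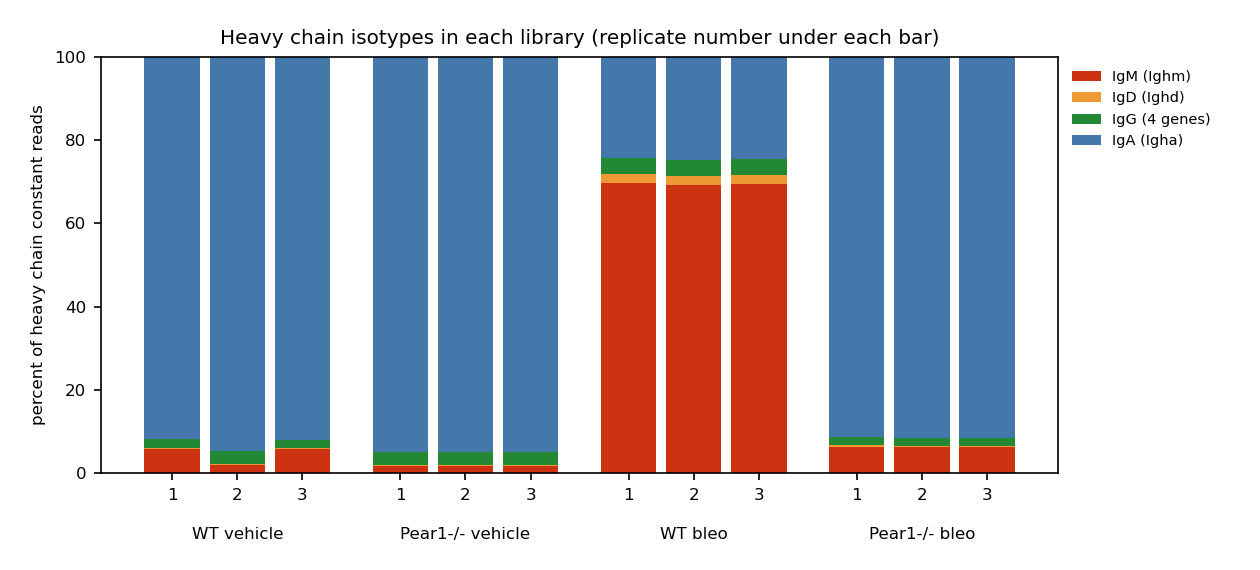
Share of heavy chain constant reads (percent) taken by each isotype in each of the 12 libraries. The 3 WT bleo libraries are mostly IgM (69.3 to 69.8%), and IgA takes 91.4% or more in every other library.

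The IgG genes together took 2.45% ± 0.70, 3.15% ± 0.073, 3.87% ± 0.053 and 1.98% ± 0.0072 of heavy chain reads, in the order used above. Within IgG, Ighg2b was the main subclass in every group, from 51.9% ± 0.92 of IgG reads in WT bleo to 71.3% ± 2.85 in WT vehicle. The Ighg3 share of IgG was 12.3% ± 0.16 in WT bleo, against 1.62% ± 1.50 in WT vehicle (0.752% ± 0.043 without replicate 2), 3.25% ± 0.10 in Pear1-/- vehicle and 4.56% ± 0.18 in Pear1-/- bleo. The Ighg1 share was highest in Pear1-/- bleo, at 5.31% ± 0.31, followed by 3.58% ± 0.040 in WT bleo, 1.29% ± 0.14 in Pear1-/- vehicle and 0.492% ± 0.69 in WT vehicle (0.0940% ± 0.013 without replicate 2). There were 1.61 ± 0.078 Ighg2b reads for each Ighg2c read in WT bleo, and 2.41 to 2.88 in the libraries of the other groups.

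Of the Igkc and Iglc2 reads, Iglc2 took 0.587% ± 0.17, 0.749% ± 0.026, 1.68% ± 0.035 and 1.29% ± 0.023 in the same order. With Iglc1 and Iglc3 added to lambda the shares became 2.73% ± 1.12, 4.08% ± 0.40, 5.67% ± 0.22 and 5.18% ± 0.15. Without replicate 2 the WT vehicle shares were 0.489% ± 0.0097 and 2.09% ± 0.078. WT bleo had the highest lambda share in either form. Light chain constant reads per heavy chain constant read were 0.787 ± 0.049, 0.854 ± 0.021, 0.610 ± 0.012 and 0.736 ± 0.015. The WT bleo libraries (0.597 to 0.619) were under all others (0.724 to 0.871).

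Levels of different genes were compared as CPM per kb of the union of each gene's exons. Igkc was the highest in every group, from 9191 ± 87.0 in WT bleo to 81070.3 ± 2514 in Pear1-/- vehicle. Igha came next in WT vehicle (13688 ± 3381), Pear1-/- vehicle (18110.0 ± 224) and Pear1-/- bleo (10409 ± 149). In WT bleo it stood behind Ighm (749 ± 0.64 against 3008 ± 40.9). Ighe had the lowest mean in every group, at 1.38 or less, but in WT vehicle this rests on replicate 2. Without that library Ighg1 averaged 0.254 ± 0.048 in WT vehicle and Ighe 0.639 ± 0.24. Neighbours in the order overlapped in WT vehicle (Ighm with Iglc2, Iglc2 with Ighg2b, Ighg2b with Ighg2c, Ighg3 with Ighg1 and Ighg1 with Ighe) and in Pear1-/- bleo (Ighg1 at 12.3 ± 0.85 with Ighg3 at 10.9 ± 0.46). No neighbours overlapped in Pear1-/- vehicle or WT bleo. The length used matters. Per kb of the shortest transcript Igha was 33199.6 ± 8201 in WT vehicle and 1818 ± 1.55 in WT bleo. With all libraries, the 2 highest genes and Ighe as the lowest stayed in place in each group. In WT vehicle without replicate 2, Ighg1 was again under Ighe (0.611 ± 0.12 against 0.741 ± 0.28). The genes Ighg2b, Iglc2, Ighm, Ighd and Ighg2c changed ranks in some groups, and Ighg1 and Ighg3 no longer overlapped in Pear1-/- bleo.

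The variable gene segments, which encode the antigen-binding part, were taken only as sums. The 167 Ighv rows summed to 102231 ± 27189, 134279 ± 16399.9, 16101 ± 551 and 57236 ± 1057 normalised counts in WT vehicle, Pear1-/- vehicle, WT bleo and then Pear1-/- bleo (SD, n = 3), and the Igkv rows to 135754 ± 42187, 187603 ± 22504, 23902 ± 729 and 90983 ± 2273. Without replicate 2 the WT vehicle sums were 86589 ± 3237 and 111511 ± 5760.1. Both sums were lowest in WT bleo, as were Igha and Igkc. Ighv reads for each heavy chain constant read were 0.306 ± 0.014, 0.282 ± 0.027, 0.222 ± 0.0085 and 0.211 ± 0.0077, which ran from 0.266 to 0.317 in the vehicle libraries and from 0.205 to 0.231 in the bleo libraries. Igkv reads for each Igkc read did not part vehicle from bleo, at 0.518 ± 0.036, 0.464 ± 0.034, 0.549 ± 0.012 and 0.461 ± 0.013.

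Genes that mark the cells of the B lineage were not among the 10 and were tested in a fit over all genes. The gene lists were chosen with earlier results of these data known, so their p-values are no independent support for the immunoglobulin differences. A gene was called at an adjusted p under 0.05 and a fold above 2 in edgeR's quasi-likelihood test with Benjamini-Hochberg adjustment. Of 17 B cell receptor and identity genes, 3 were called higher and 1 lower in WT bleo against WT vehicle (8 and 0 without WT vehicle replicate 2), where 10.5% of all tested genes were called higher and 23.5% lower (11.4% and 33.7% without that library). In Pear1-/- bleo against Pear1-/- vehicle, 1 was called higher and 1 lower, beside 8.38% and 19.4% of all genes. Between the bleo groups, Pear1-/- against WT, 1 was called higher and 5 lower, beside 6.26% and 8.76%. The list medians were 0.47 (0.88 without that library), -0.55 and -0.59 on the log2 scale, beside -0.071, -0.048 and -0.013 for all genes.

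Apart from Pax5, the called genes of this list were picked for naming after their values were seen. Cd72, an inhibitory co-receptor that macrophages can also express, averaged 236 ± 20.0, 225 ± 16.4, 2830.3 ± 21.5 and 813 ± 8.31 normalised counts in WT vehicle, Pear1-/- vehicle, WT bleo and then Pear1-/- bleo (SD, n = 3), and was called higher in both bleo groups than in their vehicle groups and lower in Pear1-/- bleo than in WT bleo. The adaptor Blnk averaged 435 ± 107, 515 ± 57.2, 1293 ± 18.6 and 538 ± 23.2. It was called higher in WT bleo than in WT vehicle, as was Cr2, a complement receptor, and both were called lower in Pear1-/- bleo than in WT bleo, along with Bank1 and Pax5. Vpreb3, a gene of early B cells, was called lower in both bleo groups (in WT not without WT vehicle replicate 2, log2 -0.38) and higher in Pear1-/- bleo than in WT bleo. The summed macrophage markers were 16906 ± 1293, 18429 ± 757, 141232 ± 365 and 56522 ± 1141 in the same order, highest in WT bleo as were Cd72 and Blnk, and the part of macrophages in these calls was not tested.

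Cd79a and Cd79b carry the signal of the B cell receptor. Cd79a stood at 1587, 2930.5 and 1452 normalised counts in WT vehicle, 2830.3, 2791 and 3329 in Pear1-/- vehicle, 2385, 2415 and 2417 in WT bleo, with 2051, 2037 and 2006 in Pear1-/- bleo. It was called in none of the 4 comparisons. Its partner Cd79b differed between the bleo groups by -0.65 ± 0.14 (edgeR adjusted p = 0.00155, fold under 2). Pax5, the factor that keeps B cell identity, was 2.17-fold lower in Pear1-/- bleo (94.4 ± 8.26) than in WT bleo (203 ± 22.5; edgeR adjusted p = 6.94e-07). Ms4a1 (CD20) averaged 608 ± 194, 881 ± 71.7, 1103 ± 80.2 and 842 ± 39.9 in the order used above, and its log2 difference of WT bleo from WT vehicle was 0.87 ± 0.15 (edgeR adjusted p = 0.000119, fold under 2; 1.23 and called without WT vehicle replicate 2).

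Of 14 antibody-secreting cell genes outside the immunoglobulin loci, 7 were called lower and 0 higher in WT bleo against WT vehicle (6 and 0 without WT vehicle replicate 2), beside 23.5% and 10.5% of all genes (33.7% and 11.4% without it). In Pear1-/- bleo against Pear1-/- vehicle, 3 were called lower and 0 higher, beside 19.4% and 8.38%. Against WT bleo, 8 were called higher and 0 lower in Pear1-/- bleo, beside 6.26% and 8.76%. The list medians were -0.91 (-0.65 without that library), -0.40 and 1.33, beside -0.071, -0.048 and -0.013 for all genes. The sum of 7 mesenchymal markers was also higher in Pear1-/- bleo (220599 ± 4245 normalised counts) than in WT bleo (76737 ± 350.3). In that sum Pear1-/- bleo also lay above Pear1-/- vehicle (106655 ± 1079), where the list median was negative. The part of the sorted cells in these calls was not tested.

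Jchain stood at 79134, 144677 and 87406 normalised counts in WT vehicle, 160943, 168802 and 138031 in Pear1-/- vehicle, 9227, 9338 and 8683 in WT bleo, with 72087, 69992 and 72519 in Pear1-/- bleo. It fell 11.3-fold in WT bleo against WT vehicle (log2 -3.50 ± 0.17, -3.12 without WT vehicle replicate 2, edgeR adjusted p = 9.18e-11) and 2.17-fold in Pear1-/- bleo against Pear1-/- vehicle (edgeR adjusted p = 1.66e-05). Jchain was 7.80-fold higher in Pear1-/- bleo than in WT bleo (edgeR adjusted p = 1.98e-09). Mzb1, which helps antibody assembly, averaged 1116 ± 464, 1781 ± 39.8, 383 ± 4.64 and 1086 ± 25.7 and was 2.81-fold higher in Pear1-/- bleo than in WT bleo (edgeR adjusted p = 1.07e-05).

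Tnfrsf17 (BCMA), a survival receptor of plasma cells, fell from 137 ± 56.7 to 22.1 ± 5.69 in WT and from 189 ± 25.7 to 61.0 ± 7.45 in Pear1-/- mice (edgeR adjusted p = 1.03e-06 and 2.16e-05). Its WT vehicle mean was 105 ± 15.1 without replicate 2. Xbp1, which drives secretory programs in many cell types, fell 2.02-fold in WT (edgeR adjusted p = 1.71e-06), but without WT vehicle replicate 2 its log2 difference was -0.73 and it was not called. Prdm1 and Irf4, transcription factors of plasma cells that other cells also use, were called in none of the 4 comparisons, and Irf4 averaged 345 to 385 over the groups.

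**Figure D4:**
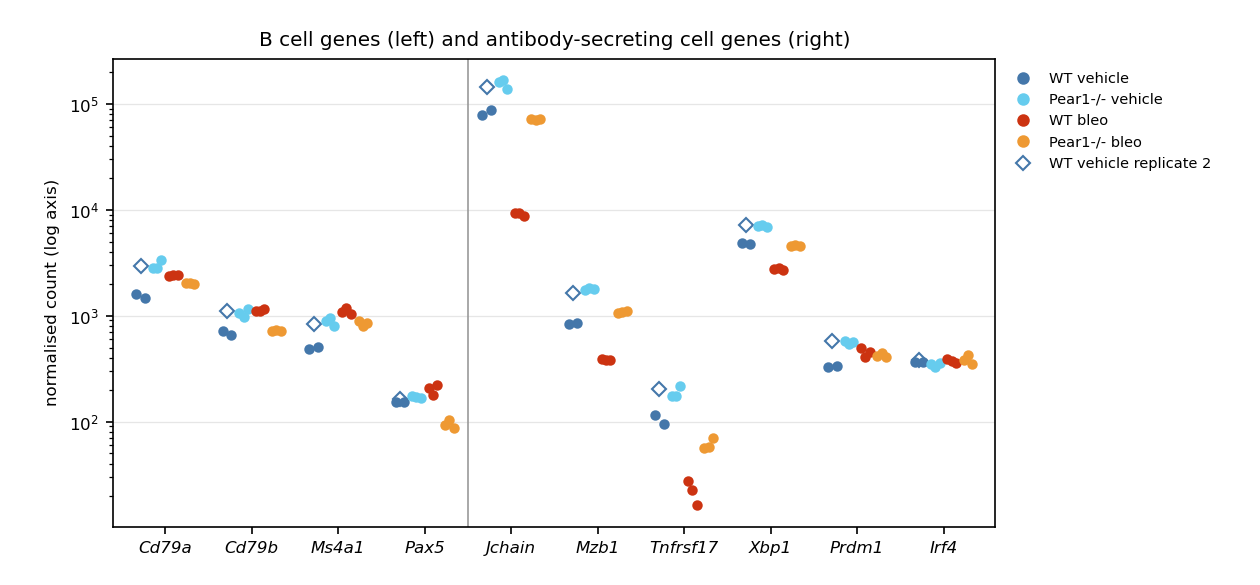
Normalised counts (log axis) of 4 B cell genes and 6 antibody-secreting cell genes, 1 point per library by group. Jchain, Mzb1 and Tnfrsf17 are lowest in WT bleo, and Pax5 is lowest in Pear1-/- bleo (86.7 to 103).

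The vehicle groups gave few calls. In Pear1-/- vehicle against WT vehicle, 0 of the 17 B cell genes and 0 of the 14 antibody-secreting genes were called higher and none of either list lower by edgeR, beside 0.0344% of all genes called higher and 2.33% lower. At an unadjusted p under 0.05, 5508 genes differed, and DESeq2 called 658 genes where edgeR called 411. Without WT vehicle replicate 2, 2 genes of the B cell list and 2 of the antibody-secreting list were called higher, beside 2.87% of all genes called higher and 21.3% lower.

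Markers of other cell types differed between the groups along with the immunoglobulins. The summed level of 10 macrophage markers, given above, was highest in WT bleo. Of the 10, 9 were called higher in WT bleo than in WT vehicle, beside 10.5% of all genes. The sum of 11 T cell markers was 1944 ± 555, 2654 ± 104, 1199 ± 62.2 and 862 ± 46.4 normalised counts in WT vehicle, Pear1-/- vehicle, WT bleo and then Pear1-/- bleo (SD, n = 3). The 7 mesenchymal markers summed to 89817 ± 13126, 106655 ± 1079, 76737 ± 350.3 and 220599 ± 4245. WT bleo, which had the least Igha, had the highest macrophage sum and the lowest mesenchymal sum. The mesenchymal markers did not move together, and 4 of the 7 were called lower in WT bleo than in WT vehicle (3 without WT vehicle replicate 2). Of all genes, 23.5% were called lower there (33.7% without that library), and 7 genes are too few to set against these shares. Dcn averaged 26523 ± 11917 in WT vehicle and 6958 ± 117 in WT bleo, while Col1a1 averaged 32386 ± 1005, 31524 ± 2065, 42471 ± 36.2 and 142173 ± 3129 in the 4 groups. The 2 endothelial markers summed to 1097 ± 119, 1228 ± 49.4, 762 ± 26.4 and 709.8 ± 15.4 and the 2 epithelial markers to 15198 ± 1887, 17807 ± 1606, 6585 ± 76.9 and 1767 ± 46.8. Almost all of the latter was Sftpc, whereas Epcam averaged 149.6 ± 25.0, 215 ± 16.6, 192 ± 8.15 and 157 ± 7.42. No marker of these lists was at 0 in any library. The part of these cells in the immunoglobulin differences was not tested.

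Of 6 genes of recombination and class switching, 4 had enough counts to be tested. Of these, 0 were called higher and 2 lower in WT bleo against WT vehicle, 0 and 1 in Pear1-/- bleo against Pear1-/- vehicle, and 1 and 0 in Pear1-/- bleo against WT bleo. The shares of all genes were 10.5% and 23.5%, 8.38% and 19.4%, and 6.26% and 8.76%, and 4 genes are too few to set against them. Between the vehicle groups none of the 4 was called (1 of the same 4 lower without WT vehicle replicate 2). Rag1, which cuts the variable segments in developing lymphocytes, had 11, 14 and 21 raw counts in WT vehicle, 5, 7 and 12 in Pear1-/- vehicle, 0 in each WT bleo library and 0, 1 and 0 in Pear1-/- bleo. It passed the filter on low counts through its vehicle libraries, so its call as lower in both bleo groups, which is part of the counts above, is not read as a result. The other called gene, Lig4, which joins broken DNA ends in all cell types and was picked after its values were seen, was 2.94-fold lower in WT bleo than in WT vehicle (edgeR adjusted p = 8.59e-05) and 2.91-fold higher in Pear1-/- bleo than in WT bleo (edgeR adjusted p = 0.000155).

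Of 12 tested receptors and transporters, 7 were called higher and 1 lower in WT bleo against WT vehicle (8 and 1 of the 12 without WT vehicle replicate 2), beside 10.5% and 23.5% of all genes (11.4% and 33.7% without it). Against Pear1-/- vehicle, 5 were called higher and 1 lower in Pear1-/- bleo, beside 8.38% and 19.4%. Against WT bleo, 1 was called higher and 8 lower in Pear1-/- bleo, beside 6.26% and 8.76%. The list medians were 1.14, 0.34 and -1.23, beside -0.071, -0.048 and -0.013 for all genes. The macrophage marker sum given above differed in the same directions, and their part in this was not tested.

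Fcgr1, the high-affinity IgG receptor of macrophages, averaged 49.5 ± 7.49, 42.7 ± 5.10, 1032 ± 24.3 and 447 ± 3.50 normalised counts in the 4 groups. It rose 20.8-fold in WT (edgeR adjusted p = 2.77e-14) and 10.4-fold in Pear1-/- mice (edgeR adjusted p = 9.78e-13), and was 2.33-fold lower in Pear1-/- bleo than in WT bleo (edgeR adjusted p = 6.27e-09). Fcgr2b, the inhibitory IgG receptor, averaged 731 ± 66.5, 743 ± 14.4, 7059 ± 31.1 and 3699.6 ± 92.7 and rose in both genotypes (edgeR adjusted p = 2.77e-14 and 1.20e-12). The activating receptors Fcgr3 and Fcgr4 averaged 5429 ± 50.1 and 879 ± 52.5 in WT bleo, with 2323 ± 6.42 and 203 ± 5.23 in Pear1-/- bleo. Both were called lower in Pear1-/- bleo than in WT bleo, by 2.36-fold and 4.37-fold (edgeR adjusted p = 2.06e-07 and 3.67e-10).

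Fcmr, the IgM receptor, averaged 436 ± 16.3, 455 ± 13.6, 819 ± 44.9 and 408 ± 13.3, and Fcer2a (CD23), the low-affinity IgE receptor of B cells, 300.4 ± 13.0, 328 ± 19.0, 677 ± 5.55 and 200.2 ± 7.77. Both were called lower in Pear1-/- bleo than in WT bleo, by 2.02-fold and 3.41-fold (edgeR adjusted p = 1.72e-08 and 1.26e-10). Fcer1a, the high-affinity IgE receptor chain, stayed at 36.4 or less in every library and was 2.12-fold higher in WT bleo than in WT vehicle (edgeR adjusted p = 0.00239). Pigr, the transporter of dimeric IgA, fell from 65.5 ± 20.8 to 19.0 ± 6.65 in WT and from 60.9 ± 3.99 to 6.25 ± 2.13 in Pear1-/- mice (edgeR adjusted p = 6.23e-05 and 8.88e-07). The epithelial marker Sftpc was also called lower in both bleo groups than in their vehicle groups, Epcam in neither, and the part of epithelial cells in this was not tested. Fcgrt, the receptor that keeps IgG from breakdown, was called in none of the 4 comparisons.

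**Figure D5:**
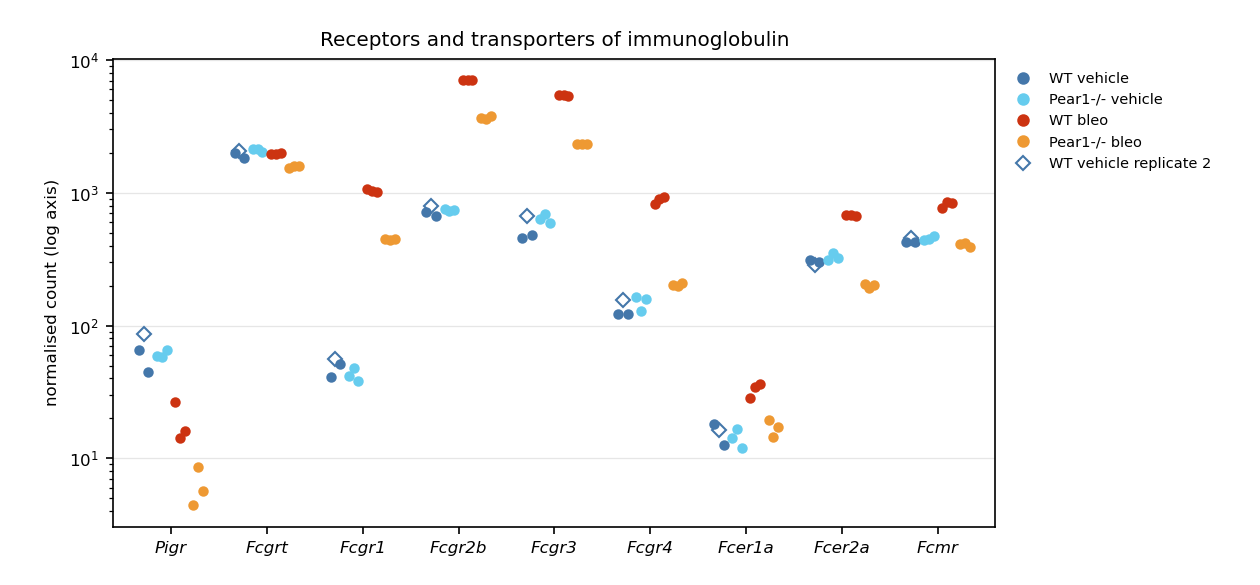
Normalised counts (log axis) of receptors and transporters of immunoglobulin, 1 point per library by group. The IgG receptors Fcgr1, Fcgr2b, Fcgr3 and Fcgr4 are highest in WT bleo, and Pigr is lowest in Pear1-/- bleo (4.44 to 8.60).

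Of 9 tested genes for signals that feed or attract B cells, 2 were called higher and 2 lower in WT bleo against WT vehicle (2 and 1 without WT vehicle replicate 2), beside 10.5% and 23.5% of all genes (11.4% and 33.7% without it). In Pear1-/- bleo against Pear1-/- vehicle, 0 were called higher and 4 lower, beside 8.38% and 19.4%, and in Pear1-/- bleo against WT bleo 0 and 2, beside 6.26% and 8.76%. The list medians were -0.35, -0.93 and -0.54. Tnfsf13b (BAFF), a survival factor of B cells, averaged 951 ± 33.9, 848 ± 46.5, 571 ± 12.6 and 371 ± 14.9 normalised counts. It fell 2.28-fold in Pear1-/- mice (edgeR adjusted p = 1.36e-09), and its log2 difference in WT was -0.72 ± 0.068 (edgeR adjusted p = 2.09e-07, fold under 2). Cxcl13, which draws B cells into follicles, averaged 91.2 ± 21.3, 119 ± 30.5, 233 ± 12.4 and 237 ± 1.25 and rose 2.55-fold in WT (edgeR adjusted p = 4.20e-06). Tnfsf13 (APRIL), a survival factor of plasma cells, stayed at 23.3 or less in every library. Il6 and Tgfb1, which favour plasma cells and the switch to IgA, were called in none of the 4 comparisons, with group means of 1229 to 2349 for Il6 and 250.2 to 439.6 for Tgfb1.

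The effect of bleo was also compared between the genotypes, and 8.61% of all genes tested were called with a positive sign in that interaction and 7.06% with a negative one (12.1% and 9.83% without WT vehicle replicate 2). Of the 17 B cell genes, 7 were called with a negative sign (a lower bleo effect in Pear1-/-) and 0 with a positive one (14 and 0 without WT vehicle replicate 2). Of the 14 antibody-secreting genes, 4 were positive and 0 negative (2 and 0 without that library). Of the 12 receptors and transporters, 1 was positive and 6 were negative (1 and 8 without it).

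Genes whose levels ran most closely with an isotype over the 12 libraries were sought among 13624 genes outside the immunoglobulin loci, by Pearson's r of log2 CPM. Igha ran most closely with Nid1 (r = 0.998), Jchain (0.994), Peg3 (0.992) and Vasn (0.992). Nid1 encodes a basement membrane protein. Igkc ran most closely with Jchain (r = 0.995), Aebp1 (0.995), Peg3 (0.994) and Gprc5b (0.994). For Ighm the closest were Hpgds (r = 0.993), Ms4a14 (0.993), Bpifa1 (0.991) and Ppm1h (0.991), and for Ighg1 Jtb (r = 0.982), Dram1 (0.975), Zfp65 (0.973) and Wbp11 (0.969). The 12 libraries fall into a few tight groups and share their depth and make-up within them, so high values of r are easily reached, and they describe likeness of pattern only. Among the constant genes themselves r was -0.967 between Ighm and Igha, 0.987 between Igha and Igkc, 0.972 between Ighg2b and Ighg2c and 0.875 between Ighg1 and Ighg3.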

How the data were processed

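Bulk RNA was prepared from CD140a+ lung cells with the SMART-Seq v4 kit and the TruePrep library kit, and paired reads were aligned by the authors to GRCm38 (mm10) with HISAT2. The counting program, its strand setting and its treatment of reads that fit several genes are not given in the sources used here. The authors deposited raw counts per gene for 40760 rows, and a second table of signal values, the normalised counts, which equal each raw count divided by 1 size factor per library on a linear scale. No replicates were pooled.

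Counts as deposited were fitted with edgeR 4.0.16 (R 4.3.3), with TMM normalisation, filterByExpr and the quasi-likelihood test, all 12 libraries in 1 fit with a mean per group, two-sided, with Benjamini-Hochberg adjustment over 17418 genes. Called genes had an adjusted p under 0.05 and a fold above 2. DESeq2 1.42.0, limma 3.58.1 on log2 of the normalised value plus 1, other size factors, no filter, a replicate block, library sizes without immunoglobulin rows, only the libraries compared, and leaving out each library were alternatives. Depth was 6702948 to 10447101 counts per library. The edgeR step was tested on simulated data.

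The constant genes, gene lists and named genes were chosen with earlier results of these data known, so the constant genes received no test. The p-values of the list genes and other named genes are limited by the same choice. The named genes are the 10 constant genes, a set from each list and companion lambda genes, and the 4 genes outside the loci that had a log2 CPM averaging 1 or more and that correlate best with Ighm, Igha, Ighg1 and Igkc (prior count 2). Some genes of the lists are not reported here and were left out of the lists and their counts. Shares used raw counts. Sequences, coordinates and exon lengths came from GRCm38 and GENCODE M21, in which 40394 of the 40760 identifiers were found.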

Additional observations from a re-analysis of the deposited data

Results flagged for a closer look

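The effect of bleo differed between WT and Pear1-/- mice for several named genes by the interaction term of edgeR, the Pear1-/- effect minus the WT effect on the log2 scale. Jchain had a positive interaction of 2.38 (edgeR adjusted p = 1.15e-06), so its fall with bleo was smaller in Pear1-/- mice. Over the 14 antibody-secreting genes the median interaction was 0.90, and 0.29 without WT vehicle replicate 2. The B cell genes had negative ones, Cd79b -1.001 (edgeR adjusted p = 0.00127) and Pax5 -1.23 (edgeR adjusted p = 1.73e-05). Among the receptors the interactions were Fcgr3 -1.48 (edgeR adjusted p = 3.41e-06), Fcgr4 -2.29 (edgeR adjusted p = 6.33e-08), Fcer2a -1.89 (edgeR adjusted p = 1.27e-08), Fcmr -1.07 (edgeR adjusted p = 1.23e-06) and Pigr -1.49 (edgeR adjusted p = 0.0212). That of Pigr rests on few counts (14.3 to 26.6 normalised counts in WT bleo, 4.44 to 8.60 in Pear1-/- bleo), as does the interaction of Tnfsf13 -1.38 (edgeR adjusted p = 0.0199). The groups hold 3 libraries each, WT vehicle replicate 2 included, and too few to test single libraries as outliers.

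On normalised counts Ighd was higher after bleo in all WT libraries and lower in all Pear1-/- libraries, the latter narrowly (703 to 734 against 740.5 to 847). On CPM without scaling factors the Pear1-/- groups overlapped (78.3 to 82.5 against 80.0 to 89.1). The WT effect exceeded the Pear1-/- effect by 1.31 on the log2 scale. That difference was not tested, because Ighd was among the genes picked on these contrasts.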

How the results depend on the processing

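Genes called numbered 5910 in WT bleo against WT vehicle, 4847 in Pear1-/- bleo against Pear1-/- vehicle, 2617 in Pear1-/- bleo against WT bleo, 411 in Pear1-/- vehicle against WT vehicle and 2729 in the interaction. Without a filter on low counts, when all 40760 rows are tested, the counts for WT bleo against WT vehicle, Pear1-/- bleo against Pear1-/- vehicle and Pear1-/- vehicle against WT vehicle became 13669, 8019 and 2990. Leaving out 1 library at a time gave 5802 to 9192, 4949 to 6685, 2372 to 3267, 0 to 4939 and 2430 to 4468, and the highest values, 9192, 6685, 3267, 4939 and 4468, were those without WT vehicle replicate 2. The count between the vehicle groups was the least stable. It was 0 by edgeR without any one of the other 11 libraries (2955 to 6917 genes at an unadjusted p under 0.05) and 0 with only the libraries compared (3091 unadjusted), 658 by DESeq2 and 28 by limma. The cause was not tested.

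The median log2 difference of the 10 constant genes kept its sign when 1 library was left out, from -1.51 to -0.51 in WT bleo against WT vehicle, -0.79 to -0.65 in Pear1-/- bleo against Pear1-/- vehicle, 1.33 to 1.39 in Pear1-/- bleo against WT bleo and 0.49 to 1.37 between the vehicle groups. The values without WT vehicle replicate 2 were -0.51 and 1.37 in the comparisons that use WT vehicle. Ighe fell under the filter in some settings, and the median was then over the others. Of the log2 differences of single constant genes, 724 moved by less than 1 SD, 34 moved by more and 1 changed sign, Ighg1 in WT bleo against WT vehicle, at -0.027 without WT vehicle replicate 3 (range over left-out libraries -0.027 to 4.29). For genes outside the loci, 2208 adjusted p-values stayed on their side of 0.05, 90 rose above it and 50 fell under it.

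List counts moved mainly with WT vehicle replicate 2. In WT bleo against WT vehicle the called B cell genes ran from 3 to 8 when 1 library was left out (8 without that library), and the called recombination genes from 2 to 4, with 4 without a filter, when more of that list is tested. Between the vehicle groups the ranges were 0 to 2 for B cell genes, 0 to 2 for antibody-secreting genes, 0 to 2 for receptors, 0 to 1 for help genes and 0 to 3 for recombination genes, with Rag2 and Dntt counted where they passed the filter of a setting. For the latter they were 1 to 2 in Pear1-/- bleo against Pear1-/- vehicle and 1 to 2 in Pear1-/- bleo against WT bleo (2 there without a filter). Between the vehicle groups, without a filter, 1 recombination gene and 1 receptor were called. With only the libraries compared, 0 recombination genes were called in Pear1-/- bleo against Pear1-/- vehicle and 1 help gene in Pear1-/- bleo against WT bleo.

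Without Ighd among the heavy chains, the Igha share was 95.1% in Pear1-/- vehicle, 25.0% in WT bleo, with 91.7% in Pear1-/- bleo, the Ighm share in WT bleo 71.0% and light over heavy chain reads in WT bleo 0.623. With Iglc1 and Iglc3 added to lambda, its share was 2.73%, 4.08%, 5.67% and 5.18% in WT vehicle, Pear1-/- vehicle, WT bleo and then Pear1-/- bleo, and light over heavy chain reads were 0.884, 0.636 and 0.767 in the last 3.

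Groups share replicate numbers, but nothing ties libraries of the same number to each other, and their deviations from the group means correlated between -0.16 and 0.0997. In a fit with a replicate block, 5887, 4837, 2582, 349 and 2645 genes were called in the order above, and the medians of the constant genes were -1.17, -0.70, 1.37 and 0.76. Depth limits what can be said of Ighe and Ighg1, which had few counts in some groups.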
